A study of Mus musculus with 4 samples.

Results

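The insulin-like growth factor (IGF) genes described here are 8 of the 15746 genes counted in single cells of mouse Achilles tendon: the ligands Igf1 and Igf2, the receptor Igf1r, and the binding proteins Igfbp3, Igfbp4, Igfbp5, Igfbp6 and Igfbp7. They were given by name, with earlier results of these data known, and Igfbp2 and Igf2r, also in the count table, are not among them. Their counts were read in all 13 cell populations that the authors named and in all 4 libraries. Together they held 68307 unique molecular identifiers (UMIs), each of which marks 1 captured transcript.

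The study set out to catalogue the cell populations of tendon by single-cell RNA sequencing. Each of the 4 libraries came from Achilles tendons of male C57Bl/6 mice aged 6 weeks, with no treatment, and was made with a droplet kit that reads transcripts from the 3′ end (Chromium version 3). The labels give no mouse per library, so whether a library held 1 animal or several is not stated, and the p-values below measure the spread between libraries. There is no control group: every comparison is between cell populations within the same libraries.

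IGF1 and IGF2 are secreted peptides that signal through the receptor tyrosine kinase IGF1R, whose adaptors activate the PI3 kinase and MAP kinase pathways. The secreted IGF-binding proteins hold most IGF outside cells, and proteases that cut them release it. IGFBP7 binds IGF weakly and is also known as a protein of vascular basement membranes. In tendon, IGF1 is known to stimulate collagen synthesis and cell proliferation.

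The libraries held 580, 246, 256 and 109 cells with totals of 5603366, 2252390, 2269014 and 1375111 UMIs, and no barcode was shared between libraries. Levels are given in CPM, a gene's UMIs per 1000000 UMIs of all cells of a population summed within a library, for sums of 5 or more cells. The populations were 3 kinds of tendon fibroblast (TF1, TF2 and TF3), bursal fibroblasts (BF), pericytes (P), 3 kinds of endothelial cell (EC1, EC2 and EC3), 3 kinds of nerve cell (NC1, NC2 and NC3), immune cells (IC) and red blood cells (RBC). Of the markers, the tendon genes Col1a1, Col1a2, Dcn, Fmod, Tnmd and Scx were each highest in TF1, TF2 or TF3, all 3 bursal markers in BF, 4 of 5 pericyte markers in P and 1 in NC3, all 5 immune markers in IC, and 3 of 4 lymphatic markers in EC3. The 5 Schwann and nerve markers were each highest in NC1, NC2 or NC3, with sums of 57489 to 71989.8 CPM in NC1, 52404 to 56350.5 in NC2 and 5492 to 7335 in NC3. In the 5 NC3 cells of library 4 the 5 pericyte markers summed to 1534 CPM and the 5 immune markers to 444 CPM, with Rgs5, Myh11, Ptprc, Cd68, C1qa and Csf1r at 0 in NC3. Globin genes and Alas2 made up 912830 to 970249 CPM of the red blood cell sums. Library 2 held 9 TF1, 2 TF2 and no BF cells, and TF3 reached 5 cells in library 1 only, so TF1, TF2 and BF were compared in libraries 1, 3 and 4, and TF3 has no replicate.

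**Figure D1:**
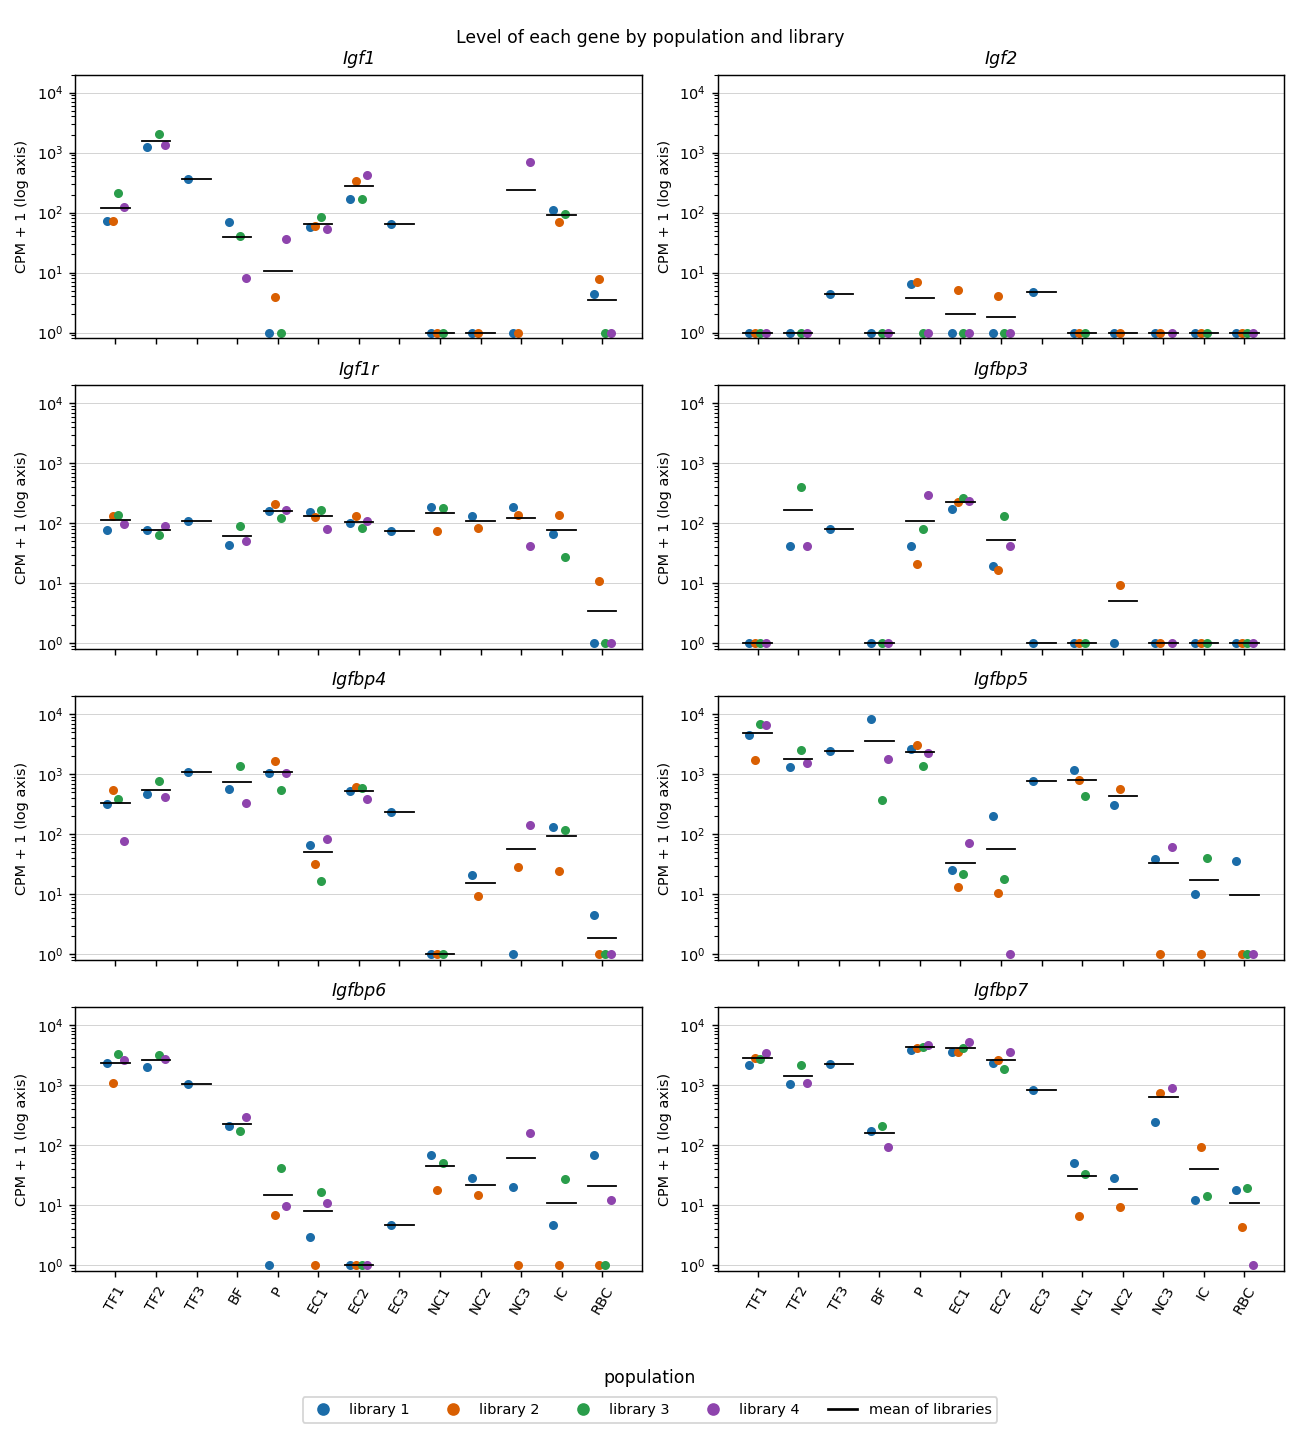
Each panel plots 1 gene, with populations along the x axis and CPM + 1 on a logarithmic y axis. A point is 1 library with 5 or more cells of the population, and a line is the mean of libraries. Igf1 peaks in TF2, Igfbp6 in TF1 and TF2 and Igfbp7 in P and EC1, while Igf1r lies between 26.4 and 207 CPM in every population other than RBC. RBC sums consist mostly of globin and Alas2 UMIs.

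The genes lie on 6 chromosomes of the mm10 mouse genome (positions from GENCODE vM21): Igf1 at chr10:87858265-87937042, Igf2 at chr7:142650766-142666816, Igf1r at chr7:67952827-68233668, Igfbp3 at chr11:7206086-7213923, Igfbp4 at chr11:99041244-99054392, Igfbp5 at chr1:72857932-72874884, Igfbp6 at chr15:102144362-102149511 and Igfbp7 at chr5:77349240-77408041. Igfbp5 and Igfbp2 are read towards each other from opposite strands, and their ends lie 5457 bases apart. Igfbp7 overlaps Polr2b on the other strand and Igf1 overlaps the antisense gene Igf1os. Igf2 overlaps the protein-coding gene Gm49394 and the microRNA gene Mir483 on its own strand, and Igf2os on the other. None of these is in the count table. Whether counting used the strand is not given in the sources used here, and Polr2b and Igf1os had 431 and 3 UMIs in all cells.

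Start-site windows are shown for 4 of the genes whose levels separated neighbouring populations: Igf1 and Igfbp4 (higher in EC2 than in EC1), Igfbp5 (higher in TF1 than in TF2) and Igfbp7 (lower in BF than in TF1 and TF2). They run from 250 bases before to 50 bases after a RefSeq start (GRCm38.p6, the mm10 assembly), 5′ to 3′ on the gene's strand. Capitals mark matches on either strand to 3 common promoter motifs, the TATA box as TATAAA, the GC box as GGGCGG and the CCAAT box as CCAAT. They occur in 13.6%, 35.7% and 37.4% of 32851 mouse windows of 300 bases, and no match shown here overlaps another. The windows are chr10:87860861-87861160 (plus strand), chr11:99040994-99041293 (plus), chr1:72874816-72875115 (minus) and chr5:77407996-77408295 (minus).
Igf1: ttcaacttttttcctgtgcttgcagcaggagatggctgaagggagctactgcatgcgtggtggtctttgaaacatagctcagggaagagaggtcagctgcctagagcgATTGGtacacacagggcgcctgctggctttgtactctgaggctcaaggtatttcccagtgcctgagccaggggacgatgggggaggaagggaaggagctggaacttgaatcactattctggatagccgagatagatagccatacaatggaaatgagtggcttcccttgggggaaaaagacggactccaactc
Igfbp4: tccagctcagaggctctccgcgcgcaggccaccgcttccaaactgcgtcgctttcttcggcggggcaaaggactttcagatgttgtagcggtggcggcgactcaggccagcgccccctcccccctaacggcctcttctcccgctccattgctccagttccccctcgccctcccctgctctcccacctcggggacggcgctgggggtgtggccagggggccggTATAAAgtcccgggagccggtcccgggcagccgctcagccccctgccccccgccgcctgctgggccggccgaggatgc
Igfbp5: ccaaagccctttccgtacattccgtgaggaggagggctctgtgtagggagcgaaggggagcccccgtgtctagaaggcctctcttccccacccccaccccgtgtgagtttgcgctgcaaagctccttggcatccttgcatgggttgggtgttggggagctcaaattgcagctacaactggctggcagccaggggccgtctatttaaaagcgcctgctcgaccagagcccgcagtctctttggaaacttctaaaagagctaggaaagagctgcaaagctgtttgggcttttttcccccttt
Igfbp7: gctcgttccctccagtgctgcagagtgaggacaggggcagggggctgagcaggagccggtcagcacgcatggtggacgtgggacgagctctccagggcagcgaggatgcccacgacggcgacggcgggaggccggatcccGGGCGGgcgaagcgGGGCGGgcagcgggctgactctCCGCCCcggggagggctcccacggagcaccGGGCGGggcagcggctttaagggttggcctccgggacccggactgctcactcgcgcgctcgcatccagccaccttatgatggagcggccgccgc
The Igf1 window held 1 CCAAT match, which lies on the reverse strand and is printed as its complement, the Igfbp4 window 1 TATAAA match that begins at position -28 from the start, and the Igfbp7 window 4 GGGCGG matches. The Igfbp5 window held no match to the 3 motifs. Its GC content was 56.3%, against 73.3% for Igfbp7 and a median of 52.7% over all windows. Igf1 is known to have more than 1 start, and 3′ counts do not tell which start a transcript used.

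Igf1 was highest in TF2, where its level was 1544 ± 432 CPM (SD, n = 3). The libraries gave 1239.8 CPM in library 1, 2039 in library 3 and 1353 in library 4, and every one of them lay above every library of each other population. TF3 stood at 361 CPM in its single library.
EC2 followed with 168 CPM in library 1, 336 in library 2, 168 in library 3 and 419 in library 4, with a mean of 273 ± 126 CPM (SD, n = 4). TF1 gave 70.0 CPM in library 1, 70.3 in library 2, 208 in library 3 and 125 in library 4, with a mean of 118 ± 64.9 CPM (SD, n = 4). The ranges of EC2 and TF1 overlapped, since library 3 of TF1 lay above libraries 1 and 3 of EC2.
Below them, IC stood at 89.8 ± 19.1 CPM (SD, n = 3), EC1 at 62.4 ± 14.9 CPM (SD, n = 4) and BF at 38.8 ± 31.1 CPM (SD, n = 3). No Igf1 UMI was found in NC1 (49 cells) or NC2 (46 cells), where 3 UMIs would correspond to 10.00 and 5.68 CPM. The mean of NC3, 236 CPM, came from library 4 alone, in which 33 of 35 UMIs lay in 1 of 5 cells.

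Cells differ in depth, from a median of 20284 UMIs in BF to 2591 in NC3, so the share of cells with at least 1 UMI was also taken after thinning every cell to 2400 UMIs, which left out 114 shallower cells, 39 of them RBC and 13 NC3. At this depth Igf1 was found in 78.1 ± 8.72% (SD, n = 3) of TF2 cells, 30.4 ± 13.6% (SD, n = 4) of EC2 cells and 13.0 ± 4.68% (SD, n = 4) of TF1 cells. Without thinning the shares were 83.2%, 61.2% and 38.4%. In red blood cells, a type that should lack Igf1, the share was 0.860% without thinning and 0.595 ± 1.19% (SD, n = 4) with it, and in pericytes 2.56% and 1.56 ± 3.12% (SD, n = 4). Globin genes and Alas2 made up 912830 to 970249 CPM of the red blood cell sums. A low share there therefore does not measure stray Igf1 RNA in other populations. The median depth was 4132 UMIs in red blood cells, 9188 in pericytes and 10662 in TF2. In immune cells the thinned share was 14.3 ± 4.44% (SD, n = 3).

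**Figure D2:**
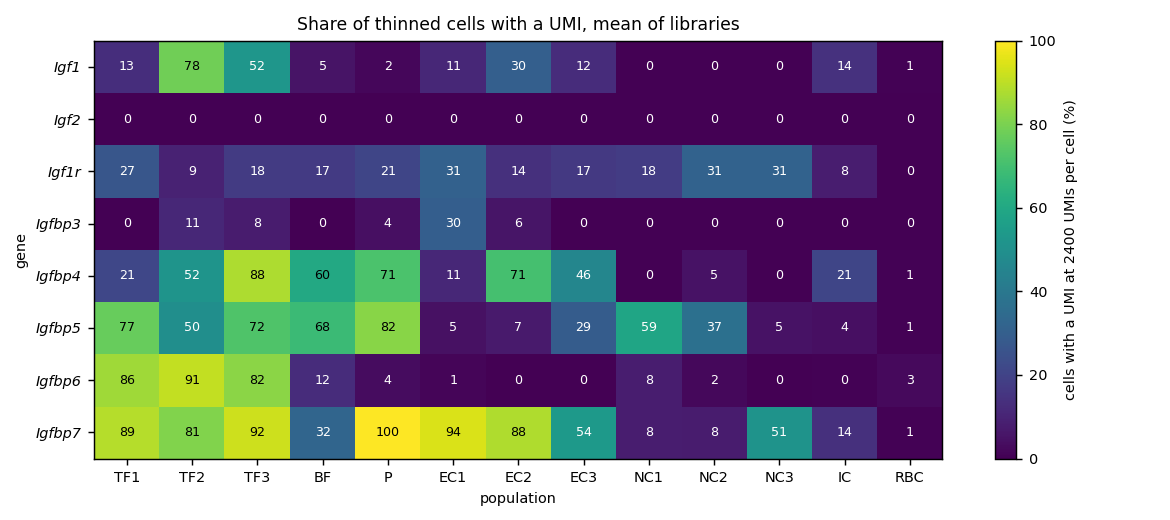
Each cell of the grid gives the percentage of a population's cells (columns) with at least 1 UMI of a gene (rows) after thinning to 2400 UMIs per cell, averaged over libraries. Igf1 reaches 78% in TF2, Igfbp6 86% and 91% in TF1 and TF2, Igfbp7 100% in pericytes, and Igf2 0 everywhere.

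Igf2, the second ligand, is strongly expressed in fetal tissues. It had 10 UMIs in all 1191 cells, each in a different cell: 5 in P, 2 in EC1 and 1 each in EC2, EC3 and TF3. All 10 lay in libraries 1 and 2. In the 173 TF1 and 156 TF2 cells there was none, and in TF1 a count of 3 would correspond to 1.70 CPM. No comparison had enough Igf2 counts to be tested. The part of Gm49394, which overlaps Igf2 on the same strand, in these low counts was not tested.

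Igf1r was found in all 13 populations. The means ran from 163 ± 35.2 CPM (SD, n = 4) in pericytes to 60.6 ± 25.5 CPM (SD, n = 3) in bursal fibroblasts, and in the order of means every population overlapped the next, down to BF. RBC lay lower, with 3 UMIs, all in 1 cell of library 2. Globin genes and Alas2 made up 912830 to 970249 CPM of the RBC sums, which left few UMIs for any other gene. Their part in the low Igf1r level was not tested.
In pericytes the libraries gave 159.8 CPM in library 1, 207 in library 2, 121 in library 3 and 163 in library 4, and in EC1 154 CPM in library 1, 125 in library 2, 164 in library 3 and 80.6 in library 4. TF1 gave 78.0 CPM in library 1, 133 in library 2, 135 in library 3 and 98.2 in library 4, and TF2 75.6 CPM in library 1, 62.8 in library 3 and 88.6 in library 4. Pericyte, EC1 and TF1 libraries interleaved, and 1 of 3 TF2 libraries lay within the range of TF1. After thinning, the share of cells with a UMI was 31.0 ± 1.58% (SD, n = 4) in EC1, 26.9 ± 4.39% (SD, n = 4) in TF1 and 9.38 ± 8.80% (SD, n = 3) in TF2.

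Igfbp3, the main carrier of circulating IGF, was found in few populations. EC1 gave 174 CPM in library 1, 231 in library 2, 269 in library 3 and 235 in library 4, with a mean of 227 ± 39.4 CPM (SD, n = 4). TF2 gave 41.0 CPM in library 1, 412 in library 3 and 40.3 in library 4, so its mean of 164 ± 214 CPM (SD, n = 3) rested on library 3. There, 27 of 78 cells held its 354 UMIs, and the 8 cells with most UMIs held 71.2% of them.
Pericytes gave 41.8 CPM in library 1, 20.4 in library 2, 80.7 in library 3 and 296 in library 4, and 1 cell held 61 of the 67 UMIs of library 4. EC2 gave 18.3 CPM in library 1, 15.7 in library 2, 135 in library 3 and 40.5 in library 4.
No Igfbp3 UMI was found in TF1 (173 cells), BF (40), EC3 (36), NC1 (49), NC3 (32), IC (92) or RBC (145). A count of 3 would correspond to 1.70 CPM in TF1 and 4.23 CPM in IC.

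Igfbp4, which binds both IGFs and is cut by the protease pappalysin 1, was highest in TF3 (1110.4 CPM, 1 library) and in pericytes. Pericytes gave 1051 CPM in library 1, 1665 in library 2, 538 in library 3 and 1034 in library 4, with a mean of 1072 ± 462 CPM (SD, n = 4). BF gave 561 CPM in library 1, 1365 in library 3 and 335 in library 4, and TF2 476 CPM in library 1, 763 in library 3 and 411 in library 4. These populations and EC2 and TF1 overlapped in the order of means.
EC2 gave 523 CPM in library 1, 625 in library 2, 589 in library 3 and 392 in library 4, and EC1 64.3 CPM in library 1, 31.2 in library 2, 15.8 in library 3 and 83.8 in library 4. The lowest EC2 library lay above the highest EC1 library. NC1 had no Igfbp4 UMI, and the thinned share of cells was 70.7 ± 14.6% (SD, n = 4) in EC2 against 11.2 ± 4.17% (SD, n = 4) in EC1.

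Igfbp5, a binding protein that attaches to extracellular matrix, was highest in TF1, with 4506 CPM in library 1, 1727 in library 2, 6841 in library 3 and 6569.8 in library 4, with a mean of 4911 ± 2365 CPM (SD, n = 4). Library 2, with 9 TF1 cells, was the lowest. BF gave 8429.6 CPM in library 1, 369 in library 3 and 1780.2 in library 4: library 1, with 30 cells, lay above every TF1 library, while of libraries 3 and 4, with 5 cells each, the first lay below and the second just above the lowest TF1 library.
Pericytes gave 2608 CPM in library 1, 3121 in library 2, 1385 in library 3 and 2279 in library 4, and TF2 1319 CPM in library 1, 2590.0 in library 3 and 1547 in library 4. NC1 (809 ± 371 CPM, SD, n = 3) and NC2 (433 ± 185 CPM, SD, n = 2) lay below them and above EC1 (32.3 ± 26.2 CPM, SD, n = 4) without overlap. NC3 stood at 32.8 ± 30.6 CPM (SD, n = 3).
Single TF1 cells also varied. In library 1, 65.0% of 60 cells had an Igfbp5 UMI and 6 cells held 60.5% of all 2832, whereas 96.4% of 83 cells in library 3 and every one of 21 cells in library 4 had one.

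**Figure D3:**
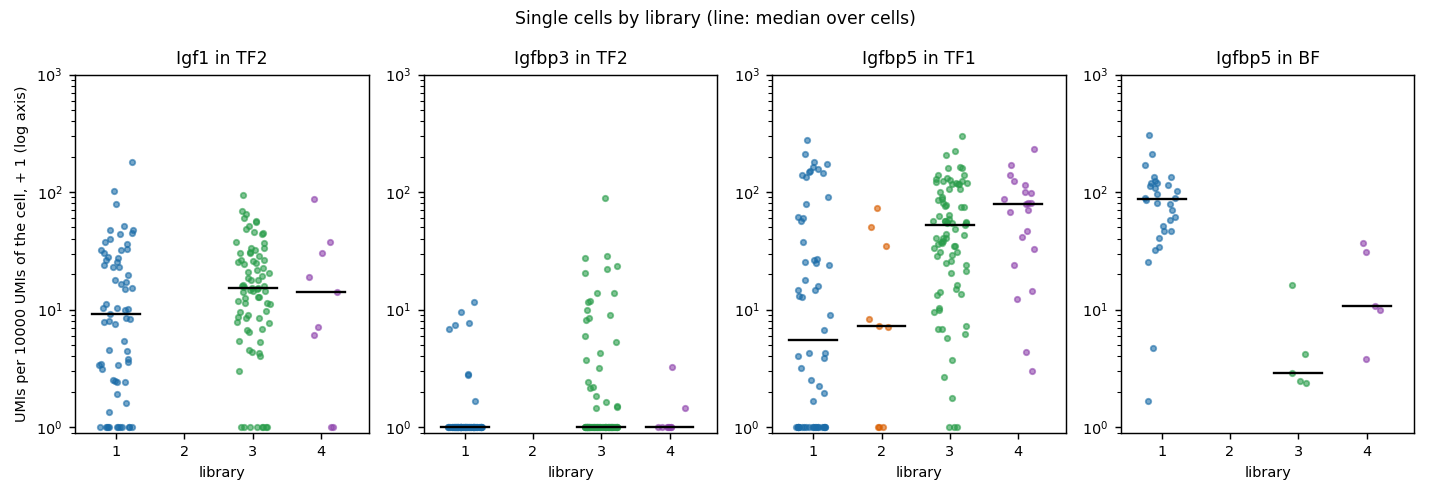
Each point is 1 cell, plotted by library (x axis) and by UMIs of the gene per 10000 UMIs of the cell, plus 1, on a logarithmic y axis; lines are medians over cells, and populations of fewer than 5 cells in a library are not drawn. Igf1 is spread over most TF2 cells of each library, Igfbp3 over 27 of 78 TF2 cells of library 3, and Igfbp5 in BF is high in most of the 30 cells of library 1.

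Igfbp6, which binds IGF2 in preference to IGF1, was found almost wholly in tendon fibroblasts. TF2 gave 1994 CPM in library 1, 3209.6 in library 3 and 2763 in library 4, with a mean of 2656 ± 615 CPM (SD, n = 3), and TF1 2350.3 CPM in library 1, 1094 in library 2, 3273 in library 3 and 2586 in library 4, with a mean of 2326 ± 909.8 CPM (SD, n = 4). The libraries of these populations overlapped. TF3 stood at 1056 CPM.
BF gave 209.7 CPM in library 1, 169 in library 3 and 292 in library 4, below every tendon fibroblast library. Every other population had a mean of at most 60.1 CPM, and EC2 had no UMI in 74 cells. Tendon fibroblasts held 95.5%, 96.5%, 99.5% and 95.2% of the Igfbp6 UMIs of libraries 1 to 4, although they were only 5.69% of the cells of library 2.

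Igfbp7 was highest in pericytes and EC1. Pericytes gave 3928 CPM in library 1, 4203 in library 2, 4396 in library 3 and 4638 in library 4, with a mean of 4291 ± 301 CPM (SD, n = 4), and EC1 3572 CPM in library 1, 3539 in library 2, 4206 in library 3 and 5305 in library 4, with a mean of 4156 ± 825 CPM (SD, n = 4). The ranges of these populations overlapped, and every library of both lay above all TF1 and EC2 libraries.
TF1 gave 2183 CPM in library 1, 2821 in library 2, 2766 in library 3 and 3436 in library 4, and EC2 2371 CPM in library 1, 2612 in library 2, 1833 in library 3 and 3526 in library 4. TF2 gave 1050.2 CPM in library 1, 2154 in library 3 and 1079 in library 4, below every TF1 library. BF stood at 158 ± 59.5 CPM (SD, n = 3), NC1 at 29.5 ± 22.3 CPM (SD, n = 3) and NC3 at 632 ± 345 CPM (SD, n = 3). The thinned share of cells reached 100% in pericytes and was 8.10 ± 7.33% (SD, n = 3) in NC1.

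**Figure D4:**
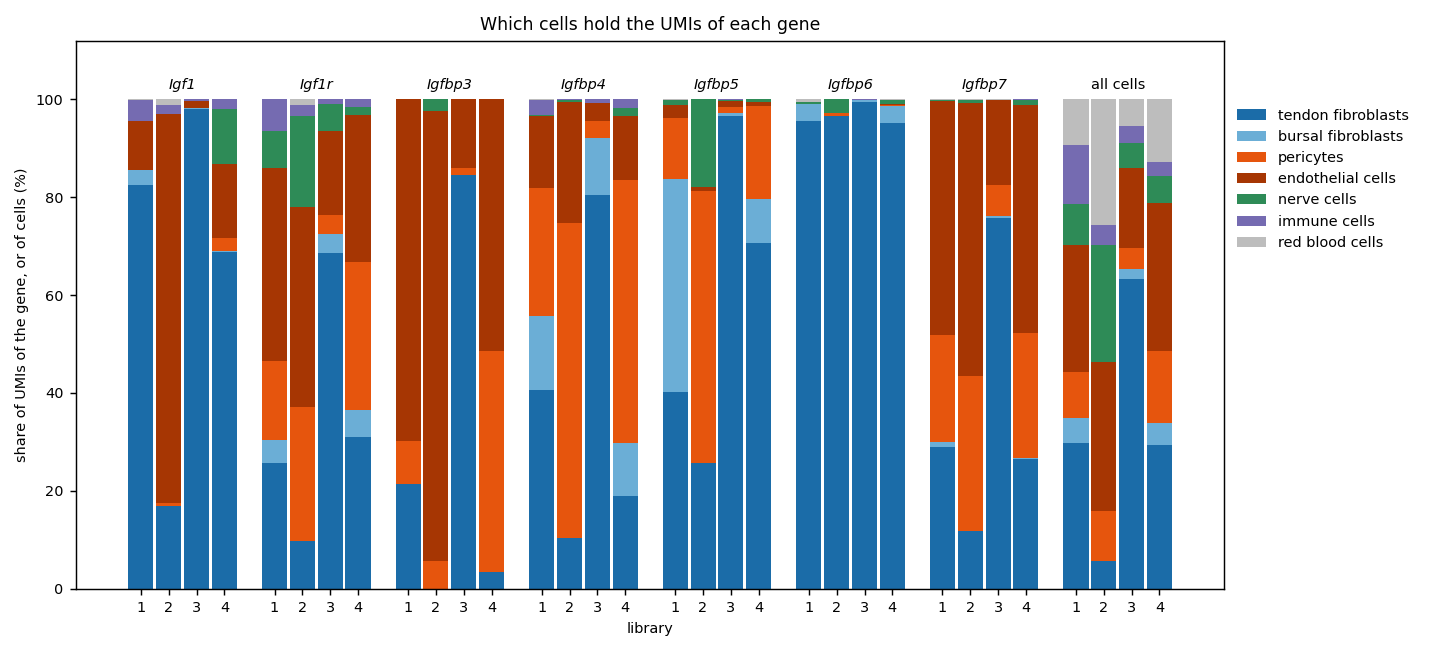
Stacked bars give the percentage of each gene's UMIs held by 7 cell classes in libraries 1 to 4, with the classes' shares of cells at the right; Igf2, with 10 UMIs, is left out. Tendon fibroblasts hold over 95% of Igfbp6 UMIs in each library, but their share of Igf1 runs from 16.9% in library 2 to 98.1% in library 3.

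The cell class that held most Igf1 UMIs differed between libraries. Tendon fibroblasts held 82.5% of the Igf1 UMIs of library 1, 98.1% of library 3 and 68.7% of library 4. In library 2, which held 2 TF2 cells, they held 16.9% and endothelial cells 79.7%. Pericytes held 64.5% of Igfbp4 UMIs in library 2 and 3.40% in library 3, where they were 4.30% of cells. These shares describe the captured cells, which need not hold the proportions of the tissue.

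Differences between populations were tested on the summed counts with library as a block (edgeR quasi-likelihood test, Benjamini-Hochberg adjustment over all genes tested, called at adjusted p under 0.05). The value after ± is the standard error for a log2 fold change and the SD over libraries for a level. The authors named the populations from the expression of these same cells, which may have included the IGF genes. The same tests were also run on populations rebuilt from a random portion of the UMIs without IGF genes. Each of the 23 rebuilt clusters took the authors' name most common among its cells, so these populations are not independent of the authors' names. Insr and Igf2r, the receptors of insulin and IGF2, are given with each comparison that could test them. The 8 comparisons share populations and libraries and are not independent of each other. Scaling by trimmed means (TMM) moved the median log2 fold change of all genes, against scaling by library totals alone, by 0.44 for tendon fibroblasts against endothelial cells, -0.40 for nerve cells and -0.48 for immune cells against tendon fibroblasts, 0.19 for TF1 against TF2, 0.15 for TF1 against BF and 0.14 for pericytes against endothelial cells, and all fold changes below are relative to the TMM reference.

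**Figure D5:**
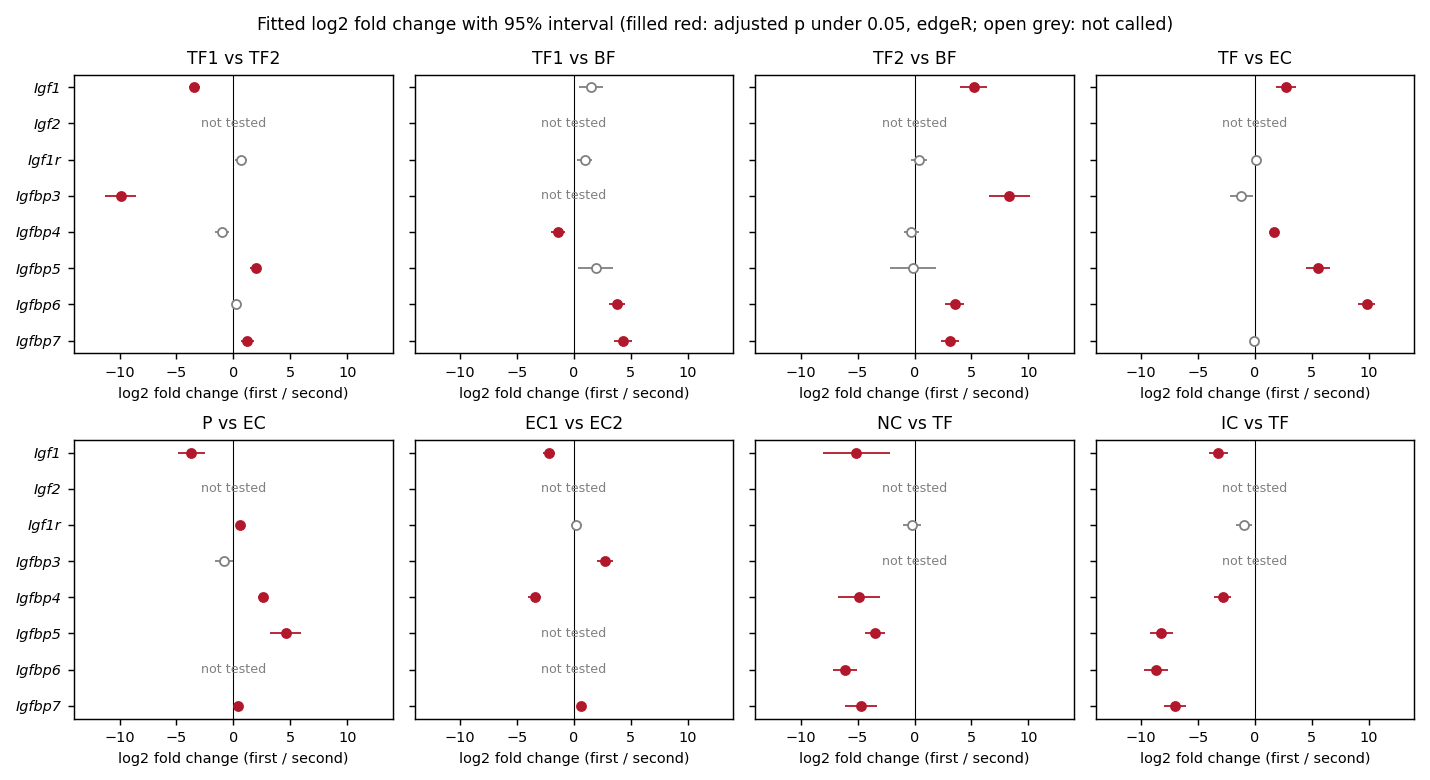
Points are fitted log2 fold changes (first population over second) of each gene in the 8 comparisons, and bars are 95% intervals. Filled red points passed an adjusted p of 0.05 and open grey points did not; fold changes of Igfbp3 against TF1 and BF depend on the fit, because those populations had 0 UMIs. Igfbp6 is higher in TF1, TF2 and all tendon fibroblasts against BF, endothelial, nerve and immune cells, and Igf1 is lower in TF1 than in TF2.

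TF1 and TF2, the main tendon fibroblast populations, differed in which IGF genes they expressed. Igf1 and Igfbp3 were higher in TF2, and Igfbp5 and Igfbp7 were higher in TF1. Igf1 stood at 134 ± 69.3 against 1544 ± 432 CPM (SD, n = 3), lower in TF1 in 3 of 3 libraries (log2 fold change -3.42 with SE 0.25, edgeR adjusted p = 5.7e-05). Igfbp3 had 0 UMIs in TF1 against 391 in TF2, at least 121-fold lower with 3 counts over the group as the floor (edgeR adjusted p = 0.0002). Of the TF2 UMIs, 354 lay in library 3, without which the bound was 12.2-fold. The call was lost with DESeq2 (adjusted p = 0.108, range 2.4e-34 to 0.108 over 10 alternatives).
Igfbp5 stood at 5972 ± 1277 against 1819 ± 678 CPM (SD, n = 3), higher in TF1 in 3 of 3 libraries (log2 fold change 1.95 with SE 0.26, edgeR adjusted p = 0.00147). Igfbp7 stood at 2795 ± 627 against 1428 ± 629 CPM (SD, n = 3), also higher in 3 of 3 (log2 fold change 1.22 with SE 0.30, edgeR adjusted p = 0.0378). The Igfbp7 call was lost without library 1 (adjusted p = 0.192), without library 4 (0.175), without the library block (0.0903) and with rebuilt populations (0.0502), with a range of 3.4e-05 to 0.192 over 11 alternatives.
In all, 4 of 7 tested IGF genes were called, against 8.12% of 7043 genes. The libraries of TF1 and TF2 did not overlap for 5, these 4 and Igfbp4, against 26.0% of genes. Igfbp6 did not pass, at a log2 fold change of 0.26 ± 0.22 (95% interval -0.16 to 0.68), nor did Igf1r at 0.68 ± 0.26 (95% interval 0.17 to 1.19) or Igfbp4 at -0.9996, SE 0.31 (edgeR adjusted p = 0.091, range 0.00347 to 0.339 over 11 alternatives). Of all calls, 53.3% were higher in TF1, or 39.0% with library totals alone.

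The pathway around these genes was followed in lists of 46 other genes (other ligands and receptors, proteases of binding proteins, receptor adaptors and kinases, the growth hormone axis, and messenger-binding and imprinted genes), of which 37 are in the count table. Between TF1 and TF2, 2 of 25 tested pathway genes were higher in TF1, 3 lower and 20 not called (median log2 fold change -0.26, against 0.01 over all 7043 genes). Higher in TF2 were Socs2, an inhibitor of growth hormone signalling (14.8 ± 8.56 against 68.4 ± 6.18 CPM, SD, n = 3 in TF1 and TF2), the metalloprotease gene Adamts1 (42.9 ± 5.91 against 134 ± 15.7 CPM, SD, n = 3) and Pik3r1, the regulatory subunit of PI3 kinase (119 ± 43.6 against 375 ± 145 CPM, SD, n = 3). Irs2, an adaptor of the IGF1 and insulin receptors, was higher in TF1 (95.3 ± 33.6 against 44.8 ± 15.9 CPM, SD, n = 3). The Socs2 call was lost without library 1 (adjusted p = 0.0523, range 9.5e-06 to 0.0523 over 10 alternatives), and that of Irs2 without library 1 (0.0776) or library 3 (0.107) and with DESeq2 (0.132, range 0.00027 to 0.132 over 11 alternatives). Igf2r was not called (log2 fold change -1.03 with SE 0.35, edgeR adjusted p = 0.126), but was without library 1 (-1.66, adjusted p = 0.0299, range 0.0131 to 0.599 over 11 alternatives), and Insr was at 0.10 ± 0.39 (edgeR adjusted p = 0.951).

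Among single TF2 cells thinned to 2400 UMIs, most cells with Igfbp3 also had Igf1. In library 1, 6 of 6 cells with an Igfbp3 UMI also had Igf1, against 45 of all 63 cells. In library 3 these counts were 16 of 18 and 66 of 75, and in library 4 no TF2 cell had an Igfbp3 UMI at this depth. In EC1, 1 of 16, 0 of 14, 1 of 7 and 0 of 8 Igfbp3 cells of libraries 1 to 4 had an Igf1 UMI. Of all thinned EC1 cells, 11 of 89, 6 of 43, 3 of 24 and 1 of 20 had one. These are descriptions of sparse counts, and cells of 1 library share its free RNA.

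Bursal fibroblasts line the bursa beside the tendon and are marked by the lubricin gene Prg4. Both TF1 and TF2 had more Igfbp6 and Igfbp7 than BF, TF2 also had more Igf1 and Igfbp3, and TF1 had less Igfbp4. Igfbp6 stood at 2737 ± 479 against 224 ± 62.5 CPM (SD, n = 3) in TF1 and BF (log2 fold change 3.77 with SE 0.35, edgeR adjusted p = 4.8e-06), and was higher in TF2 by a log2 fold change of 3.54 ± 0.43 (edgeR adjusted p = 0.00071). Igfbp7 stood at 2795 ± 627 against 158 ± 59.5 CPM (SD, n = 3) in TF1 and BF (log2 fold change 4.30 with SE 0.40, edgeR adjusted p = 4.5e-06), and was higher in TF2 by 3.13 ± 0.40 (edgeR adjusted p = 0.00103). All 4 of these differences were seen in 3 of 3 libraries, whose ranges did not overlap (nor did those of 32.6% and 21.5% of all genes tested).
Igf1 stood at 1544 ± 432 against 38.8 ± 31.1 CPM (SD, n = 3) in TF2 and BF (log2 fold change 5.20 with SE 0.59, edgeR adjusted p = 0.0005), and the value was 6.49 without library 1. Igfbp3 had 391 UMIs in TF2 and 0 in BF, at least 61.4-fold higher in TF2 (edgeR adjusted p = 0.00099). Without library 3 the bound was 9.97-fold, and without library 1 29.3-fold. The call was lost without the library block (adjusted p = 0.0605) and with DESeq2 (0.0508), with a range of 1.4e-15 to 0.0605 over 7 alternatives.
Igfbp4 stood at 260.1 ± 164 against 754 ± 541 CPM (SD, n = 3) in TF1 and BF, lower in TF1 in 3 of 3 libraries (log2 fold change -1.38 with SE 0.31, edgeR adjusted p = 0.00728). The call was lost without library 3 (adjusted p = 0.0633), without library 4 (0.0635), without the block (0.143) and after thinning (0.218), with a range of 0.00209 to 0.218 over 10 alternatives.
Thus 3 of 6 tested IGF genes were called in TF1 against BF, where 15.0% of 5186 genes were, and 4 of 7 in TF2 against BF, where 6.45% of 4960 genes were. Igfbp5 did not pass in either, at 1.90 ± 0.79 and -0.12 ± 1.02, and the BF libraries spread from 369 to 8429.6 CPM. Without library 1 the Igfbp5 and Igf1 differences of TF1 from BF were called, at 3.32 (adjusted p = 0.0168, range 7.8e-06 to 0.736 over 10 alternatives) and 3.26 (0.0147, range 0.00132 to 0.887 over 9 alternatives), while libraries 3 and 4 held 5 BF cells each.

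For TF1 against BF, 5 of 19 tested pathway genes were higher in TF1, 0 lower and 14 not called (median log2 fold change 0.46, against 0.02 over all 5186 genes). For TF2 against BF, 4 of 22 tested pathway genes were higher in TF2, 0 lower and 18 not called (median log2 fold change 0.57, against 0.00 over all 4960 genes). Meg3, an imprinted long noncoding RNA, was higher in both tendon populations, with 847 UMIs in TF1 and 1332 in TF2 against 3 in BF (edgeR adjusted p = 2.9e-06 and 0.00011). On the log2 scale, Irs2 was higher by 3.33 ± 0.45 in TF1 and 2.14 ± 0.51 in TF2, and Pik3r1 by 1.54 ± 0.40 and 2.93 ± 0.50. In TF1 the serine protease gene Htra3 was higher by 1.76 ± 0.30, and in TF2 the imprinted cell-cycle inhibitor gene Cdkn1c, with 167 UMIs against 1 in BF (edgeR adjusted p = 0.00193). Without library 1 the Pik3r1 values were 2.15 in TF1 and 3.91 in TF2; the call of TF1 was then lost (adjusted p = 0.0599) and both Pik3r1 calls after thinning (0.383 and 0.101, ranges 0.00072 to 0.383 over 10 alternatives and 5.5e-11 to 0.177 over 10 alternatives). The Irs2 call of TF2 was lost without library 4 (0.0856, range 0.00968 to 0.262 over 7 alternatives). The Irs2 call of TF1 was lost after thinning (adjusted p = 0.0811, range 1.3e-09 to 0.0811 over 10 alternatives). Insr was not called, at 0.55 ± 0.57 in TF1 and 0.29 ± 0.56 in TF2 against BF (edgeR adjusted p = 0.625 and 0.867). Igf2r was not called, at -0.29 ± 0.36 in TF1 and 0.61 ± 0.41 in TF2 against BF (edgeR adjusted p = 0.702 and 0.526).

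All tendon fibroblasts were next compared with all endothelial cells in 4 libraries. Igfbp6, Igfbp5, Igf1 and Igfbp4 were higher in tendon fibroblasts. Igfbp6 stood at 2371 ± 740.0 against 5.10 ± 5.09 CPM (SD, n = 4), 465-fold apart (log2 fold change 9.80 with SE 0.38, edgeR adjusted p = 1.4e-08), with 9 UMIs in all endothelial cells. Igfbp5 stood at 3666 ± 1044 against 140.1 ± 124 CPM (SD, n = 4), a log2 fold change of 5.53 with SE 0.53 (edgeR adjusted p = 6.7e-06), and neither gene's libraries overlapped, as for 49.3% of all genes tested. Without library 1 or 2 the Igfbp5 value was 6.12 or 4.95. Of the 427 Igfbp5 UMIs of endothelial cells, 290 lay in EC3, which stood at 763 CPM in 1 library. EC1 stood at 32.3 ± 26.2 and EC2 at 56.3 ± 95.3 CPM (SD, n = 4).
Igf1 stood at 628 ± 424 against 116 ± 37.2 CPM (SD, n = 4), a log2 fold change of 2.71 with SE 0.46 (edgeR adjusted p = 0.00057) and was higher in 3 of 4 libraries, the exception being library 2 with its 2 TF2 cells, without which the value was 3.32. Of the 3269 Igf1 UMIs of tendon fibroblasts, 2906 lay in TF2. TF1 alone stood at 118 ± 64.9 CPM (SD, n = 4), close to the level of all endothelial cells and below EC2 at 273 ± 126 CPM (SD, n = 4). Igfbp4 stood at 458 ± 178 against 191 ± 54.5 CPM (SD, n = 4), a log2 fold change of 1.65 with SE 0.23 (edgeR adjusted p = 0.00013) and was higher in 4 of 4. The endothelial sum mixed EC1 at 48.8 ± 30.9 with EC2 at 532 ± 103 CPM (SD, n = 4). TF1 stood at 332 ± 196 CPM (SD, n = 4), TF2 at 550 ± 187 CPM (SD, n = 3) and TF3 at 1110.4 CPM in 1 library, so EC2 was not below TF1.
Igfbp6, Igfbp5, Igf1 and Igfbp4 were 4 of 7 tested IGF genes, against 42.2% of 7563 genes, of whose calls 50.4% were higher in tendon fibroblasts, or 25.4% with library totals alone. Igfbp7 stood at 2443 ± 579 against 3524 ± 892 CPM (SD, n = 4), lower in tendon fibroblasts in 4 of 4 libraries by CPM, and its fitted value was -0.08 ± 0.19 (edgeR adjusted p = 0.761) with TMM but -0.54 (adjusted p = 0.028, range 0.028 to 1 over 12 alternatives) with library totals. Igfbp3 was at -1.21 ± 0.52 (edgeR adjusted p = 0.0854) and without library 3 at -2.27 (adjusted p = 0.00175, range 6.8e-07 to 0.635 over 12 alternatives). Igf1r was at 0.11 ± 0.19, and at -0.34 with library totals; neither was called.
Of the pathway lists, 9 of 23 tested pathway genes were higher in tendon fibroblasts, 7 lower and 7 not called (median log2 fold change 0.00, against 0.00 over all 7563 genes). The proteases Htra3 (416 ± 25.9 against 6.61 ± 3.47 CPM, SD, n = 4) and Htra1 (726 ± 287 against 28.4 ± 8.69 CPM, SD, n = 4), which can cut IGF-binding proteins, were higher in tendon fibroblasts, as were Meg3 (log2 fold change 4.76 ± 0.56, and 5.78 without library 1 and 4.17 without library 2) and Irs2 (4.60 ± 0.47). The insulin receptor gene Insr was lower (24.4 ± 6.21 against 101 ± 29.0 CPM, SD, n = 4, log2 fold change -1.45 with SE 0.22, edgeR adjusted p = 0.00028), and Igf2r, which clears IGF2, was at -0.08 ± 0.24 (edgeR adjusted p = 0.831).

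The larger endothelial populations, EC1 and EC2, differed in 4 of 5 tested IGF genes, against 18.2% of 5126 genes. EC2 had more Igf1 and Igfbp4, and EC1 more Igfbp3 and Igfbp7, each in 4 of 4 libraries and without overlap (as for 19.7% of all genes tested). Igf1 stood at 62.4 ± 14.9 against 273 ± 126 CPM (SD, n = 4) in EC1 and EC2 (log2 fold change -2.16 with SE 0.26, edgeR adjusted p = 1.4e-05). Igfbp4 stood at 48.8 ± 30.9 against 532 ± 103 CPM (SD, n = 4), a log2 fold change of -3.45 with SE 0.29 (edgeR adjusted p = 2.1e-07).
Igfbp3 stood at 227 ± 39.4 against 52.3 ± 56.0 CPM (SD, n = 4), a log2 fold change of 2.73 with SE 0.34 (edgeR adjusted p = 1.8e-05). Igfbp7 stood at 4156 ± 825 against 2585 ± 706 CPM (SD, n = 4), a log2 fold change of 0.62 with SE 0.14 (edgeR adjusted p = 0.00386). Igf1r did not pass, at 0.20 ± 0.24 (95% interval -0.28 to 0.67). The Igfbp3, Igfbp4 and Igfbp7 calls held in all 12 alternative runs, with adjusted p of at most 0.0292. The Igf1 call held in the 11 runs that gave Igf1 an adjusted p. After thinning Igf1 had none, and 3 IGF genes were called.
Of the pathway lists, 0 of 16 tested pathway genes were higher in EC1, 6 lower and 10 not called (median log2 fold change -0.36, against 0.02 over all 5126 genes). Among the calls over all genes, 42.6% were higher in EC1, or 51.9% with library totals alone. Insr stood at 46.9 ± 16.4 against 259 ± 113 CPM (SD, n = 4) in EC1 and EC2 (log2 fold change -2.30 with SE 0.27, edgeR adjusted p = 9e-06). Foxo1, a transcription factor that insulin and IGF signalling keeps out of the nucleus, stood at 80.7 ± 23.6 against 225 ± 50.3 CPM (SD, n = 4), a log2 fold change of -1.37 ± 0.23. Adamts1 was lower in EC1 (log2 fold change -1.09 ± 0.18), as was Cish, another inhibitor of cytokine and growth hormone signalling (-1.07 ± 0.36, edgeR adjusted p = 0.0497, and 0.0881 without library 3, range 0.0368 to 0.24 over 8 alternatives). Igf2r was at 0.06 ± 0.27 and was not called.

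Pericytes, which wrap small vessels, were compared with endothelial cells. Against EC1, EC2 and EC3 summed, they had more Igfbp4 and Igfbp5 and less Igf1. Igfbp4 stood at 1072 ± 462 against 191 ± 54.5 CPM (SD, n = 4), a log2 fold change of 2.59 with SE 0.21 (edgeR adjusted p = 1.3e-05). By population, the Igfbp4 range of EC2, 392 to 625 CPM, overlapped that of pericytes, 538 to 1665 CPM. Igfbp5 stood at 2348 ± 729.6 against 140.1 ± 124 CPM (SD, n = 4), a log2 fold change of 4.59 with SE 0.68 (edgeR adjusted p = 0.00047), with 3.81 without library 2 and 5.28 without library 3. Most endothelial Igfbp5 UMIs lay in EC3, as given above. Igf1 stood at 9.56 ± 17.2 against 116 ± 37.2 CPM (SD, n = 4), a log2 fold change of -3.72 with SE 0.60 (edgeR adjusted p = 0.00085), and 8 of its 9 pericyte UMIs lay in 1 cell of library 4. Without that library 1 UMI remained in pericytes against 300 in endothelial cells, a CPM ratio of 105-fold with a 95% counting interval of 18.8 to 4173. The 5 endothelial markers summed to 455 to 1519 CPM in pericytes, against 3674 to 5142 in EC1 and EC2 and at most 35.6 in the fibroblasts. The 5 pericyte markers summed to 12275 to 21278 CPM in pericytes and 81.0 to 1207 in EC1 and EC2, highest in EC2 of library 1. Their part in these differences was not tested.
With Igf1r (163 ± 35.2 against 123 ± 21.0 CPM, SD, n = 4, log2 fold change 0.60 with SE 0.21, edgeR adjusted p = 0.0479) and Igfbp7 (4291 ± 301 against 3524 ± 892 CPM, SD, n = 4, log2 fold change 0.44 with SE 0.14, edgeR adjusted p = 0.0324), each higher in 3 of 4 libraries, 5 of 6 tested IGF genes were called, against 34.1% of 5819 genes. Libraries did not overlap for Igf1, Igfbp4 and Igfbp5, against 33.0% of genes. The Igf1r call was lost without library 1, 2 or 4 (adjusted p = 0.13, 0.226 and 0.175, range 0.0203 to 0.795 over 12 alternatives), and the Igfbp7 call without library 1 or 2 (0.194 and 0.155) and without the block (0.0774, range 0.0036 to 0.194 over 12 alternatives). Both calls were also lost with library totals, where 3 IGF genes were called. With DESeq2, 3 IGF genes were called as well. Igfbp3 was at -0.81 ± 0.43 (edgeR adjusted p = 0.175) and, without library 4 and its 1 cell of 61 UMIs, at -1.67 (adjusted p = 0.0026, range 0.00144 to 0.872 over 12 alternatives).
Of the pathway lists, 7 of 19 tested pathway genes were higher in pericytes, 5 lower and 7 not called (median log2 fold change 0.44, against -0.02 over all 5819 genes). Irs2 stood at 132 ± 19.9 against 4.50 ± 4.18 CPM (SD, n = 4), a log2 fold change of 5.09 ± 0.45, Meg3 was higher by 3.85 ± 0.62 (3.17 without library 3 and 4.91 without library 1), Htra1 by 3.24 ± 0.27 and the kinase gene Akt2 by 2.13 ± 0.37. Insr was lower (log2 fold change -0.97 with SE 0.31, edgeR adjusted p = 0.0327), a call lost without library 1 (adjusted p = 0.247) or 2 (0.196, range 0.0012 to 0.247 over 11 alternatives). By population, the mean Insr level of pericytes lay below that of EC2 but above that of EC1. Igf2r was at -0.04 ± 0.23 and was not called.

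Nerve cells had less Igfbp4, Igfbp5, Igfbp6, Igfbp7 and Igf1 than tendon fibroblasts. Igfbp5 stood at 409 ± 153 against 3666 ± 1044 CPM (SD, n = 4) in nerve cells and tendon fibroblasts (log2 fold change -3.50 with SE 0.45, edgeR adjusted p = 0.00057). Igfbp6 stood at 64.4 ± 72.6 against 2371 ± 740.0 CPM (SD, n = 4), a log2 fold change of -6.09 with SE 0.53 (edgeR adjusted p = 9.4e-05), Igfbp7 at 265 ± 410.1 against 2443 ± 579 CPM (SD, n = 4), a log2 fold change of -4.70 with SE 0.73 (edgeR adjusted p = 0.00158) and Igfbp4 at 38.1 ± 64.0 against 458 ± 178 CPM (SD, n = 4), a log2 fold change of -4.90 with SE 0.94 (edgeR adjusted p = 0.00439).
These 4 were lower in 4 of 4 libraries without overlap, as for 34.3% of all genes tested. Without library 4, with 6 nerve cells, the values were -6.43 for Igfbp4, -6.71 for Igfbp6 and -5.62 for Igfbp7, and without library 2 that of Igfbp4 was -4.16. Of the 101 Igfbp7 UMIs of nerve cells, 85 lay in NC3. Mean Igfbp7 was 632 ± 345 CPM in NC3 (SD, n = 3), 29.5 ± 22.3 in NC1 (SD, n = 3) and 17.6 ± 13.1 in NC2 (SD, n = 2). Igf1 was lower in 3 of 4 (log2 fold change -5.13 with SE 1.50, edgeR adjusted p = 0.0317), and all 35 nerve UMIs lay in NC3 of library 4, 33 of them in 1 cell. Without that library nerve cells had 0 UMIs against 3056 in tendon fibroblasts, at least 267-fold lower with 3 counts over the group as the floor. The part of the pericyte and immune markers in NC3 of library 4, given above, was not tested. The Igf1 call was lost without library 1, 2 or 3 (adjusted p = 0.115, 0.149 and 0.123) and without the block (0.132, range 1.9e-23 to 0.149 over 12 alternatives).
In all, 5 of 6 tested IGF genes were called, against 28.7% of 4874 genes, of whose calls 43.0% were higher in nerve cells, or 63.7% with library totals alone. Igf1r was at -0.22 ± 0.41, and at 0.17 with library totals; neither was called. The 6 tendon markers summed to 1538 to 3798 CPM in nerve cell libraries, against 100.5 to 581 in EC1 and EC2, with Tnmd at 0 in NC1, NC2 and NC3 and Scx at 0 in NC1 and NC3; their part in the nerve cell levels was not tested.
Of the pathway lists, 0 of 16 tested pathway genes were higher in nerve cells, 6 lower and 10 not called (median log2 fold change -0.63, against -0.06 over all 4874 genes). Htra3 had 1 UMI in nerve cells against 1654 in tendon fibroblasts, Htra1 stood at 16.2 ± 13.8 against 726 ± 287 CPM (SD, n = 4), a log2 fold change of -5.57 ± 0.44, and Meg3 (log2 fold change -4.17 ± 0.85) and the growth hormone receptor gene Ghr (-3.16 ± 0.53) were lower. The Meg3 call was lost without library 2 (adjusted p = 0.0579, range 2e-15 to 0.0579 over 12 alternatives), and its value was -5.60 without library 1 and -3.50 without library 4. Insr and Igf2r had too few counts to be tested.

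Immune cells, in which the macrophage genes Cd68, C1qa and Csf1r were higher than in any other population, also had less of 5 of 6 tested IGF genes than tendon fibroblasts, against 29.1% of 5204 genes called. Igfbp6 stood at 10.0 ± 14.3 against 2276 ± 876 CPM (SD, n = 3) in immune cells and tendon fibroblasts (log2 fold change -8.70 with SE 0.55, edgeR adjusted p = 6e-07), and Igfbp5 at 16.3 ± 20.7 against 3356 ± 1029 CPM (SD, n = 3), a log2 fold change of -8.25 with SE 0.51 (edgeR adjusted p = 5.7e-07). Igfbp7 stood at 39.0 ± 46.5 against 2396 ± 699.5 CPM (SD, n = 3), a log2 fold change of -7.04 with SE 0.50 (edgeR adjusted p = 1.3e-06), and Igfbp4 at 91.2 ± 59.2 against 545 ± 36.3 CPM (SD, n = 3), a log2 fold change of -2.86 with SE 0.40 (edgeR adjusted p = 0.00019).
Igf1, which macrophages are known to make, stood at 89.8 ± 19.1 against 669 ± 509 CPM (SD, n = 3), a log2 fold change of -3.22 with SE 0.43 (edgeR adjusted p = 0.00013). All 5 were lower in 3 of 3 libraries without overlap, as for 47.7% of genes. All 5 calls held in every alternative run. By population, however, the Igf1 range of immune cells, 69.6 to 107 CPM, overlapped that of TF1, 70.0 to 208 CPM. Without library 1 the values of Igfbp4 and Igfbp6 were -3.48 and -7.93, that of Igfbp6 was -9.48 without library 3, and that of Igfbp7 -7.71 without library 2. Igf1r was at -0.97 ± 0.37 (edgeR adjusted p = 0.0752), and without library 2, with 10 immune cells, at -1.07 (adjusted p = 0.012, range 0.012 to 0.414 over 10 alternatives). Of all calls, 43.7% were higher in immune cells, or 64.2% with library totals alone.
Of the pathway lists, 0 of 20 tested pathway genes were higher in immune cells, 10 lower and 10 not called (median log2 fold change -1.37, against -0.04 over all 5204 genes). Meg3, Grb10 and Ghr had 0 UMIs in immune cells of the 3 libraries against 2372, 241 and 256 in tendon fibroblasts, and Htra1 had 2 against 2047. Grb10 encodes an adaptor that dampens insulin and IGF1 receptor signalling. Igf2r was lower (8.35 ± 12.9 against 60.6 ± 27.7 CPM, SD, n = 3, log2 fold change -4.82 with SE 0.79, edgeR adjusted p = 0.00055, and -5.84 without library 2), and reads of Igf2r cannot be told apart from those of its antisense gene Airn if counting ignored the strand. Insr was at -0.43 ± 0.54 and was not called.

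Igfbp2, the neighbour of Igfbp5, had 21 UMIs in all cells, 13 of them in TF3, and was tested in no comparison. By population, Insr was at 259 ± 113 CPM (SD, n = 4) in EC2 and at most 60.9 CPM, the pericyte mean, elsewhere. Igf2r was at 105 ± 22.7 CPM (SD, n = 3) in TF2, 102 ± 27.2 CPM (SD, n = 4) in EC1, 38.5 ± 15.8 CPM (SD, n = 4) in TF1 and 8.35 ± 12.9 CPM (SD, n = 3) in IC.

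For each IGF gene, the 3 most similar genes were sought by Pearson correlation of log2(CPM + 1) over 39 sums of a population in a library, among 7254 genes with 200 or more UMIs. The sums share libraries, depth and populations, so the correlations are descriptions. They include the red blood cell sums, of which globin genes and Alas2 made up 912830 to 970249 CPM. Igf1r was at most 10.1 CPM there, and genes found in all other populations can correlate through these sums alone. The part of these sums in the correlations was not tested. Igf1 was most like Trim47, Vsir and Lrrk1 (r of 0.775, 0.771 and 0.766). Igf1r was most like Rdx, Ndufa5 and Csnk1a1 (0.946, 0.945 and 0.945), and Igf2, with 10 UMIs, reached at most 0.589 with Pdlim3, followed by Scn3a and Myom1.
Igfbp3 was most like Ace, an enzyme of endothelial surfaces, Pcdh19 and Spock2 (0.864, 0.852 and 0.823). Igfbp4 was most like B4galt1, Chic2 and Ccnd2 (0.856, 0.852 and 0.851), and Igfbp5 most like Chpf, Sod3 and Serpine2 (0.872, 0.861 and 0.856). Igfbp6 was most like Col1a1, the main tendon collagen, Pcolce2 and Angptl1 (0.876, 0.850 and 0.831), and Igfbp7 most like Tm4sf1, Ptprk and Itga1 (0.881, 0.870 and 0.869).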

How the data were processed

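Single-cell RNA was measured in 4 Achilles tendon libraries. The submitters' processing notes name Cell Ranger, Seurat 2.3.4, R 3.5.2 and mm10, with no role for each. The deposited table holds raw UMI counts per gene and cell, and the deposited metadata give each cell's library, population name and UMI count. The normalized table was not used. Filters on cells and the treatment of doublets are not given in the sources used here. The counts of a cell sum to within 650 UMIs of its recorded number. Of 15750 gene entries, 4 share a name with another and were left out (0.0186% of UMIs), which left 15746.

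Counts were summed per library and population (5 or more cells in both arms, 3 or more libraries) and tested with edgeR 4.0.16 in R 4.3.3 (filterByExpr, TMM, quasi-likelihood, library as a block, Benjamini-Hochberg over all genes). The block follows from the design, since both arms come from the same library; the correlation of their deviations from the group means ranged from -0.03 to 0.20 over comparisons. Alternatives were DESeq2 1.42.0, RLE factors, library totals (added after seeing the data), no filter on low counts, no block, sums of 10 or more cells, thinning to 2400 UMIs, populations rebuilt with scanpy 1.11.5 from a 0.5 share of the UMIs without IGF genes (94.4% of cells kept their name), and leaving out each library. On simulated counts in which 200 genes had a log2 change of 2, 77.5% (TF2 against BF) to 97.0% (TF against EC) were recovered, and 1.27% (TF2 against BF) to 8.06% (TF against EC) of the genes called were unchanged ones, over 5% in 4 of the 8 comparisons.

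Depth was 1375111 to 5603366 UMIs per library. Floors are 3 counts and intervals are 95%. Floors and the counting interval of a CPM ratio cover counting error only. Intervals of log2 fold changes are the fitted value with its standard error times a normal quantile, so they include the spread between libraries. A normal quantile is too narrow for 3 or 4 libraries. Some intervals leave out no change without a call, such as that of Igf1r for TF1 against TF2 (0.17 to 1.19). The IGF genes, pathway lists and markers were chosen with earlier results of these data known. Named from the pathway lists are, per comparison, at most 4 called genes with the same direction in every library and the largest absolute log2 fold change, with Igf2r, Insr and Igfbp2, and for likeness the 3 genes of highest correlation. Protein sequences were not used here.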

Additional observations from a re-analysis of the deposited data

Results flagged for a closer look

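In 35 groups of 4 libraries (a gene in a population), 8 had 1 library far from the other 3 by Dixon's criterion. Chance marks about 1 in 20 groups of continuous values; that rate does not apply to 5 of the 8, in which the other 3 libraries were at 0 and any count meets the criterion. Igfbp5 in EC2 of library 1 was 199 CPM (76 UMIs in 9 of 30 cells, 32 in 1 cell), against 0 to 16.8 CPM in the others. In the same sum the 5 pericyte markers stood at 1207 CPM, against 81.0 to 168 in EC2 of the other libraries. Igf1 in pericytes of library 4 was 35.3 CPM, 8 UMIs in 1 cell, against 0 to 2.92 CPM. Igf2 was 4.16 CPM in EC1 and 3.14 CPM in EC2 of library 2, from 2 UMIs and 1 UMI. In red blood cells, Igf1r in library 2 was 10.1 CPM (3 UMIs in 1 cell), and in library 1 Igfbp4 was 3.44 CPM (1 UMI), Igfbp5 34.4 CPM (10 UMIs in 5 cells) and Igfbp6 68.7 CPM (20 UMIs, 19 in 1 cell, against at most 11.1 CPM in the other libraries). No cause was tested.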

How the results depend on the processing

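Of 1013 refitted log2 fold changes of the IGF and named pathway genes, 915 kept their direction and side of the threshold, 54 lost the call, 22 gained one and 22 changed sign. All that changed sign had not passed the test as reported: Igf1r in tendon fibroblasts against endothelial cells was -0.337 with library totals, -0.0446 after thinning and -0.0416 to 0.326 when a library was left out, and in nerve cells against tendon fibroblasts 0.172 with totals, 0.0590 with rebuilt populations and -0.613 to 0.106 by left-out library. Igfbp7 in tendon fibroblasts against endothelial cells was 0.000163 after thinning, 0.0745 with rebuilt populations and -0.268 to 0.0430 by left-out library. For TF2 against BF, Igfbp4 was 0.0766 after thinning, and Igfbp5 was 0.240 with rebuilt populations and -1.56 to 1.42 by left-out library. Insr for TF1 against TF2 was -0.0793 with totals, -0.124 in sums of 10 or more cells and -0.124 to 0.502 by left-out library. Igf2r was 0.370 after thinning, 0.0850 with rebuilt populations and -0.281 to 0.117 by left-out library for tendon fibroblasts against endothelial cells, -0.372 to 0.0936 for pericytes and -0.309 to 0.399 for EC1 against EC2.

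The number of all genes called moved more than the IGF genes. With DESeq2 it was 371 for TF1 against TF2 (reported 572), 503 for TF1 against BF (777) and 570 for EC1 against EC2 (933). With no filter on low counts it was 1073, 1216, 727 (TF2 against BF, 320), 3046 (pericytes against endothelial cells, 1985), 2486 (nerve cells against tendon fibroblasts, 1400) and 2856 (immune cells against tendon fibroblasts, 1516), where 1073 and 1216 are for TF1 against TF2 and against BF. After thinning it was 292, 187, 84, 1082 (tendon fibroblasts against endothelial cells, 3192), 669, 300 and 562 in the order TF1 against TF2, TF1 against BF, TF2 against BF, tendon fibroblasts and pericytes against endothelial cells, EC1 against EC2, and immune cells against tendon fibroblasts. With rebuilt populations it was 457, 178, 2112, 1083, 567 and 951 in the same order from TF1 against BF on, and in sums of 10 or more cells 2288 for nerve cells. The IGF genes called moved to 5 from 3 in TF1 against BF with no filter, and to 3 from 5 in pericytes with library totals and with DESeq2. The cause was not tested.

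Leaving out 1 library gave 362 to 529 genes for TF1 against TF2, 380 to 892 for TF1 against BF, 149 to 399 for TF2 against BF, 2392 to 3386 for tendon fibroblasts and 1375 to 2422 for pericytes against endothelial cells, 484 to 997 for EC1 against EC2, 838 to 2288 for nerve cells and 689 to 2860 for immune cells. IGF genes called then ran from 3 to 4, 2 to 5, 3 to 4, 4 to 5, 3 to 5, 4 to 4, 4 to 5 and 5 to 7 in that order.

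Without the library block, in a fit that ignores the pairing of arms within a library, 547, 817, 262, 3379, 2119, 880, 1854 and 1709 genes and 3, 2, 3, 4, 4, 4, 4 and 5 IGF genes were called in that order. Fibroblast comparisons rest on 3 libraries with as few as 5 BF and 9 TF2 cells, and low counts of Igf2, Igfbp3 and Igf1r limit what could be seen. Mean levels moved beyond their SD over libraries in 12 of 560 cases and, in populations with 1 library, beyond its counting error in 7 of 48; Igfbp5 in BF was 8429.6 CPM with sums of 10 or more cells, which left library 1 only.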

Other observations

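Genes that act on IGF-binding protein cleavage, chosen after their values were seen, had low counts that lay in few cells. Stc2 and Stc1 encode stanniocalcins, inhibitors of the pappalysin proteases. Stc2 had 53 UMIs, 39 of them in pericytes, with 27.2 CPM in library 1, 49.6 in library 2, 0 in library 3 and 30.9 in library 4. Stc1 stood at 20.5 ± 3.96 CPM (SD, n = 4) in EC1, while the 504.6 CPM of EC2 in library 3 came from 30 UMIs in 1 cell. Pappa, the pappalysin that cuts IGFBP4, had 51 UMIs in all, with 18.0 ± 6.26 CPM (SD, n = 4) in EC2 and no UMI in EC1 (190 cells). Pappa2 had 66 UMIs, of which 45 lay in 3 of 55 pericytes of library 1 and 31 of these in 1 cell. H19, the imprinted neighbour of Igf2, had 36 UMIs, of which 19 lay in 1 EC1 cell of library 2. Igfbp2 had 13 UMIs in 2 of 45 TF3 cells of library 1, 12 of them in 1 cell.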
